A study of Mus musculus with 20 samples.

Results

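The 55 protein-coding genes of the mouse count table that encode collagen chains or laminin chains were examined, chosen by symbol alone (Col followed by a number, a and a number, or Lama, Lamb or Lamc followed by a digit). They comprised 44 collagen genes and 11 laminin genes among the 25190 genes of the table, and were followed in all 20 libraries. Each library was made from hippocampal tissue (described as CA1 in the study design) of a 4-month-old wild-type male C57BL/6JOlaHsd mouse, taken 24 h after the last behavioural test. There were 4 groups of 5 mice, all of which had received an infusion into the hippocampus. The infusion held artificial cerebrospinal fluid in the Vehicle group and human hippocampal small RNAs (sRNAs) in the other groups. The sRNAs came from control individuals for the Control group and from patients with schizophrenia for the Pool 1 and Pool 2 groups, each pool being made from its own patient cohort. Each sRNA group stood for 1 pool of RNA, so the spread between mice does not include the spread between pools or donors. The paper states that the patient samples were mainly from males, while the Control pool held samples of both sexes. No label ties a library to an animal, litter or day, so that p-values measure the spread between these samples only. The libraries held 20588280 to 25543939 counts each.

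Collagens are trimers of 3 chains wound into a triple helix, and many need 2 or more different chains, encoded by different genes, to form. Fibrillar collagens such as types I, III and V build fibres in connective tissue and, in the brain, are made mainly by fibroblasts of the meninges and around vessels. Type IV collagen forms the network of basement membranes. Laminins are cross-shaped trimers of 1 alpha, 1 beta and 1 gamma chain that lie in the same basement membranes, beneath brain endothelium, around mural cells and at the end-feet of astrocytes. Some collagens are made by neurons, such as the transmembrane collagen of Col25a1 and the fibril-associated collagen of Col19a1. In tissue sequenced in bulk, more cells of a type and more RNA per cell cannot be told apart.

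Collagen and laminin mRNAs were a small part of the hippocampal transcriptome. Together they took 0.0600% to 0.0995% of the counts of a library, the highest share being in Vehicle replicate 4. Levels between genes are given as CPM (counts scaled to a common library size, after TMM normalization) per kilobase of exon, as a mean over the 20 libraries ± SD. The basement membrane chains Col4a2 (12.1 ± 2.07) and Col4a1 (9.46 ± 1.42) came first and second. These 2 genes held 22.6% of the summed level per length of the 55, and the 9 highest genes held 64.8%. Next came the fibrillar chain Col11a2 (7.14 ± 1.02), the transmembrane collagen Col25a1 (6.99 ± 1.58), a precursor of a peptide found in amyloid plaques, and the fibril-associated chain Col9a3 (6.75 ± 7.39). The SD of Col9a3 exceeded its mean, unlike that of the other 4. Among laminins, Lamb2 (5.41 ± 1.17), Lamb1 (4.98 ± 0.668) and Lamc1 (4.59 ± 0.548) stood far above every alpha chain. Lama5 led the alpha chains at 1.37 ± 0.478, and Lama2, the alpha chain of muscle and brain vessels, stood at 1.07 ± 0.146. The differences among Lamb2, Lamb1 and Lamc1 were smaller than the SD of Lamb2 between libraries.

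The other classes were led by Col6a1 at 2.93 ± 1.18 for type VI, a microfibrillar collagen, by Col8a2 at 1.45 ± 2.24 for the short-chain collagens, by Col15a1 at 0.906 ± 0.259 for the multiplexins, and by Col26a1 at 0.342 ± 0.0808 for the remainder, all in CPM per kb. In all, 21 of the 55 genes reached 1 CPM per kb and 5 stayed under 0.1. These 5 were Col17a1, Col28a1, Col6a6, Col24a1 and Col10a1. All members but Col10a1 had at least 1 count in every library, and 53 of the 55 had a mean normalized count of 10 or more. The exceptions were Col10a1, the hypertrophic cartilage collagen, at 2.52 and Col28a1 at 7.47. Per-gene values hereafter are CPM and are compared between libraries, not between genes.

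**Figure D1:**
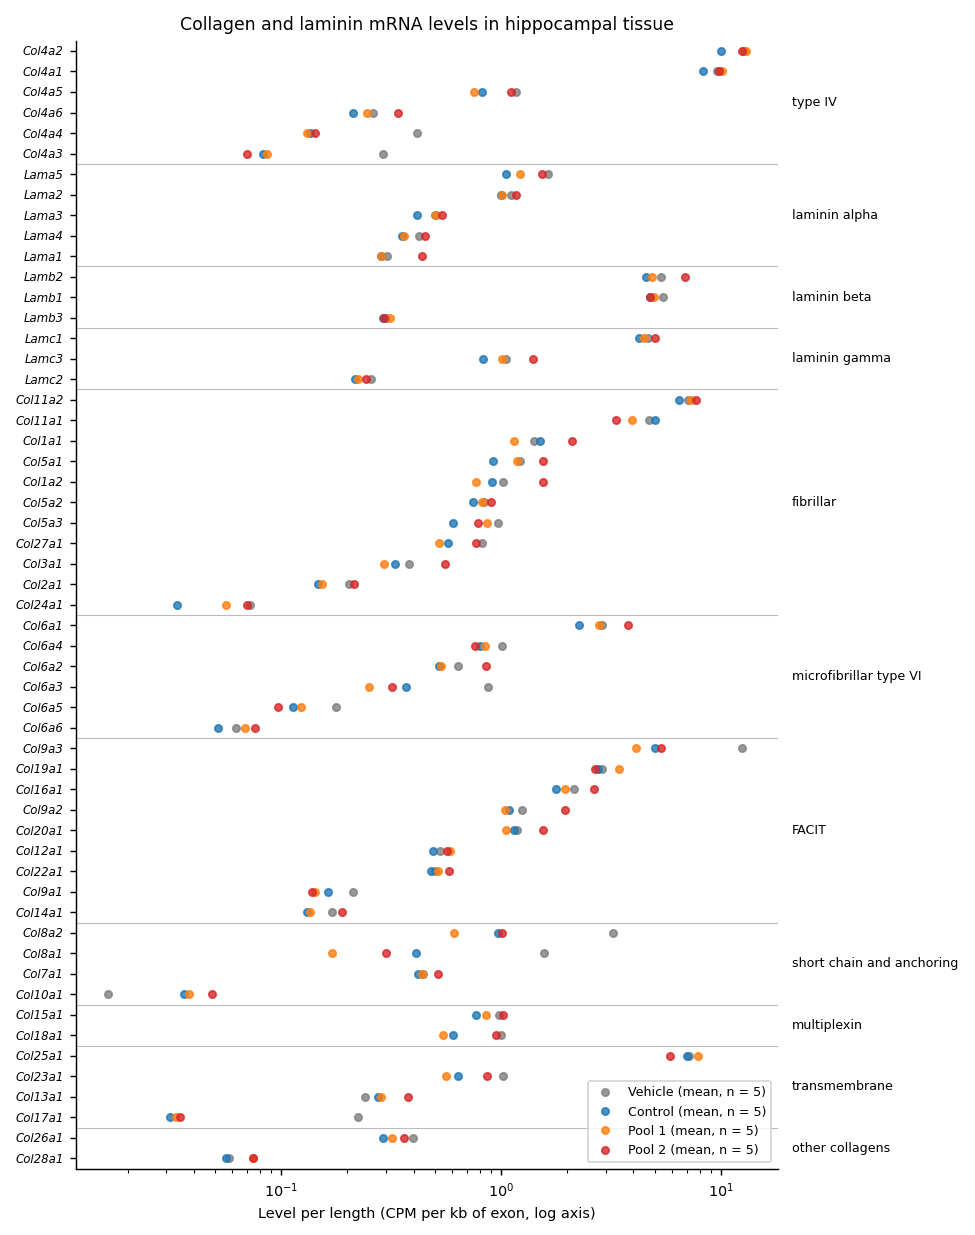
Mean level of each of the 55 genes per length (CPM per kb of exon, log axis) in the 4 groups (n = 5 libraries each), ordered by structural class and level. Col4a2 and Col4a1 stand furthest right, and the Vehicle means of Col9a3, Col8a1, Col8a2, Col4a3, Col4a4 and Col17a1 lie to the right of those of the other groups.

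A few libraries stood apart in cell type markers, and the same libraries recur in the results that follow. Vehicle replicate 4 held 8330 CPM of Ttr, the transthyretin transcript of choroid plexus epithelium, against 53.6 to 2114 in the others. Control replicate 3 (2114) and Pool 2 replicate 3 (1379) came next. Pool 2 replicate 4 was highest in the summed level of 10 leptomeningeal fibroblast markers (213 CPM, against 43.2 to 128 elsewhere), of 8 mural cell markers (350 CPM, against 149 to 280) and of 5 thalamic markers (428 CPM, against 75.4 to 237). Pool 2 replicate 1 was highest in the summed level of 5 microglial markers (529 CPM, against 211 to 310) and 5 astrocyte markers (2904 CPM, against 1277 to 1915). Control replicate 3 was lowest for 9 endothelial markers (179 CPM) and for mural markers (149 CPM). Every gene of these lists had counts in all 20 libraries. Several of these libraries were also extreme for members, and the part of the markers in that was not tested. Vehicle replicate 4 was the highest of the 20 for 11 members, Pool 2 replicate 4 for 10 and Pool 2 replicate 1 for 9, whereas Control replicate 3 was the lowest for 19.

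The type IV collagens are arranged in the genome as 3 pairs of genes that are transcribed away from each other from neighbouring starts. Col4a1 and Col4a2 lie on chromosome 8 (GRCm38), with annotated starts at 11312826 on the minus strand and 11312805 on the plus strand, so that their first bases overlap. Col4a4 (start 82586849, minus strand) and Col4a3 (start 82586921, plus strand) lie on chromosome 1 with starts 72 bases apart. Col4a6 (start 141474076, minus strand) and Col4a5 (start 141475385, plus strand) lie on the X chromosome with starts 1309 bases apart. The windows describe the sequence around these starts, and no link between sequence and mRNA levels was tested. The windows run from 250 bases before to 50 bases after the RefSeq start (GRCm38.p6), 5′ to 3′ on the strand of the gene named.
Col4a1 (chr8:11312777-11313076, minus strand), with the 78 bases that also belong to the Col4a2 window in capitals: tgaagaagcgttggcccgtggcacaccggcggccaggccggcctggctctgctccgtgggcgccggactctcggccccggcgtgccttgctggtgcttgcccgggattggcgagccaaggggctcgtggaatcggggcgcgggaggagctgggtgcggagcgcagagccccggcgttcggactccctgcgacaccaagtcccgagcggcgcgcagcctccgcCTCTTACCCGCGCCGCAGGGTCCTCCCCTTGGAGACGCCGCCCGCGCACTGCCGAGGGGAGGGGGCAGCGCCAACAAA
Col4a2 (chr8:11312555-11312854, plus strand), with the same 78 positions in capitals on the other strand: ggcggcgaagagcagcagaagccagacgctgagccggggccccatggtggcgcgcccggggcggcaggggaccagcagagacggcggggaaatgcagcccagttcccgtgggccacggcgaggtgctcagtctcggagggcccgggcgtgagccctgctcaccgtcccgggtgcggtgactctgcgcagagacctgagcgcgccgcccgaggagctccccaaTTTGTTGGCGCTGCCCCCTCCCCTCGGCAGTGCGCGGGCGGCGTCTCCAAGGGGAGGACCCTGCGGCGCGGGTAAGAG
Col4a4 (chr1:82586800-82587099, minus strand), with the 71 bases between its start and that of Col4a3 in capitals: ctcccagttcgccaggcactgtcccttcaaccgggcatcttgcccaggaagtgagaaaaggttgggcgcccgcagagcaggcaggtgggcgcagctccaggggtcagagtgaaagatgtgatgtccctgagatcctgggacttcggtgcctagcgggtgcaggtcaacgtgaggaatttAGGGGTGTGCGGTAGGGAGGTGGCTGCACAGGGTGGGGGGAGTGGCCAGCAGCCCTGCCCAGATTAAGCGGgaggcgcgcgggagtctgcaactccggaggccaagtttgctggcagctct
Col4a6 (chrX:141474027-141474326, minus strand), with the 50 bases from its start on in capitals: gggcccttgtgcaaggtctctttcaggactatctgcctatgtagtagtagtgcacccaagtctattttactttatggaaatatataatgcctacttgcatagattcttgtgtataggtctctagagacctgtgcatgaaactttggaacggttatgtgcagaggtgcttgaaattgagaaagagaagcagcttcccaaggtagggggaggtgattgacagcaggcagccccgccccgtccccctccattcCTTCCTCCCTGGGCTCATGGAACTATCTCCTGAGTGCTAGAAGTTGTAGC
Col4a5 (chrX:141475169-141475468, plus strand), with the 50 bases from its RefSeq start on in capitals, which lies at 141475419, 34 bases beyond the start given above: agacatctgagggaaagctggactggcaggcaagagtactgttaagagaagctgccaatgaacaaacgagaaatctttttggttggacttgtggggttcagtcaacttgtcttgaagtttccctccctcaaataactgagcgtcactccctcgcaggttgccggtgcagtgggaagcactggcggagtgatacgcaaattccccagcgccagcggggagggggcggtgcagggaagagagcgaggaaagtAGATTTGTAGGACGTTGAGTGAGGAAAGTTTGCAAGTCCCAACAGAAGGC
The Col4a1 and Col4a2 windows had a GC content of 74.0% and 73.7%, against a median of 52.7% over 32851 windows of the same length. The GC box letters GGGCGG, searched on both strands, occurred 1 time in the Col4a1 window, 3 times in that of Col4a2, not in that of Col4a4 and 1 time each in those of Col4a6 and Col4a5. They were in 35.7% of all windows. CCAAT, on both strands, occurred 1 time each in the Col4a1, Col4a2 and Col4a5 windows and in 37.4% of all windows. TATAAA was in none of the 5 windows and in 13.6% of all. RefSeq windows matched 40 of the 55 members by symbol, and Col4a3 was not among them.

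The mRNAs of 2 of the 3 adjoining pairs moved together over all 20 libraries, and those of the third did so only with some libraries left out. Col4a1 and Col4a2, which encode the chains of the main basement membrane trimer, had r = 0.958 on the log2 CPM scale (Spearman's rho = 0.959, permutation p = 1e-05 for both, the smallest that 100000 permutations can give). Their CPM ratio, Col4a2 over Col4a1, stayed between 1.00 and 1.21. Col4a3 and Col4a4, whose chains join with that of Col4a5 in kidney and other specialised membranes, had r = 0.931 (rho = 0.820, permutation p = 1e-05 for r), and r = 0.840 (permutation p = 3e-05) without the 3 libraries of highest Ttr. Col4a5 and Col4a6 had r = 0.315 (rho = 0.374, permutation p = 0.174 for r), and r = 0.0547 within groups. Without the 3 libraries of highest Ttr their r was 0.682 (permutation p = 0.00239). Without the 2 libraries farthest from the median of Col4a5 or Col4a3, the respective r was 0.658 and 0.744 (permutation p = 0.00294 and 0.00028). The Col4a5 to Col4a6 ratio ranged from 2.03 to 8.61 with a median of 2.92, and the highest value was that of Vehicle replicate 4, where Col4a5 reached 14.3 CPM while Col4a6 stood at 1.67. The pairs Col4a3 with Col4a4 and Col4a5 with Col4a6 were added after their values had been seen.

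**Figure D2:**
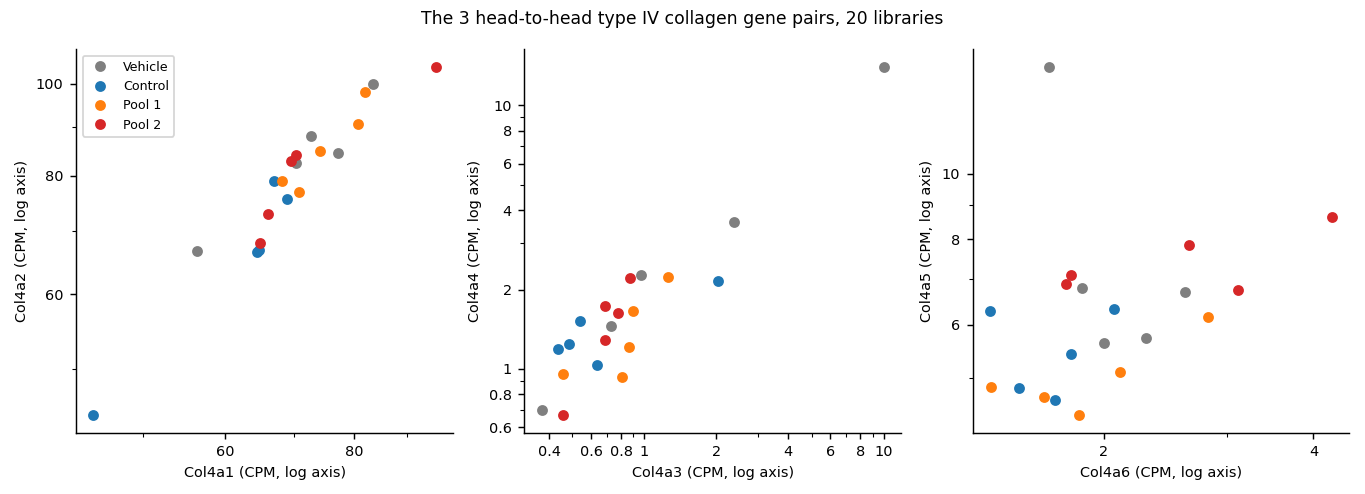
CPM of the 2 genes of each head-to-head type IV pair in the 20 libraries (both axes log), coloured by group. Col4a1 and Col4a2 lie along 1 line from Control replicate 3 (44.7 each) to Pool 2 replicate 1 (95.98 and 104), Col4a3 and Col4a4 share their highest library (10.05 and 13.997, Vehicle replicate 4), and in the third panel that library stands alone at 14.3 CPM of Col4a5.

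The comparison of Pool 2 with Control mice set sRNAs of the second patient cohort against sRNAs of control individuals. A gene was called at the threshold of the study, a log2 fold change of at least 0.3 in size and an unadjusted p under 0.05, in edgeR's quasi-likelihood test. Of the 55 members, 18 were called higher in Pool 2 and 0 lower, which is 32.7% higher, against 5.20% higher and 1.01% lower of all 25190 genes. Of these 18, 7 were also called lower in Control than in Vehicle, namely Col18a1, Col24a1, Col27a1, Col2a1, Col4a2, Col4a5 and Lama5. Summed member CPM was 827 ± 128 in Vehicle, 677 ± 69.4 in Control, 725 ± 40.8 in Pool 1 and 771 ± 38.9 in Pool 2 (mean ± SD). The median log2 fold change was 0.38 over the members and 0.00 over all genes, and 46 of 55 were above 0. In edgeR 0 members passed an adjusted p of 0.05, the lowest being 0.408, and 0 genes of the table did, while 20 members and 1939 genes had an unadjusted p under 0.05. DESeq2 called 18 members higher as well, 17 of them the same, and gave an adjusted p under 0.05 to 18 genes, of which 1 was a member (Lamc3, adjusted p = 0.0313 in DESeq2). The groups did not overlap for 5 members, all higher in Pool 2, against 0.770% of all genes higher and 0.282% lower.

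All 11 laminin genes had a log2 fold change above 0 in Pool 2 against Control, with a median of 0.35, and 5 were called. In Pool 1 against Control 10 of the 11 were above 0, with a median of 0.08 and 0 called. In Control against Vehicle all 11 were below 0, with a median of -0.23. Lamb2, the beta chain of vessel and synaptic laminins, held 34.7, 26.9, 17.2, 30.2 and 29.5 CPM in Control and 50.3, 39.7, 37.2, 42.3 and 39.2 in Pool 2. Every Pool 2 library lay above every Control library, with means of 27.7 ± 6.51 and 41.7 ± 5.10 CPM (SD, n = 5) and a log2 fold change of 0.59 ± 0.14 (SE, adjusted p = 0.408). Lamc3, a gamma chain known from cortical and retinal basement membranes, held 5.28, 4.36, 4.05, 6.08 and 5.39 CPM in Control and 9.32, 9.11, 6.92, 9.01 and 8.33 in Pool 2. The groups again did not overlap, the fold change being 1.70-fold, a log2 fold change of 0.76 ± 0.17 (SE, adjusted p = 0.408). The other called laminins were the alpha chains. Lama5 (11.4, 9.32, 12.9, 14.5 and 12.2 in Control, 16.9, 19.4, 19.999, 17.7 and 13.6 in Pool 2) had a log2 fold change of 0.54 ± 0.23 (SE, adjusted p = 0.584). Lama1, the alpha chain of early and meningeal basement membranes, held 2.82, 2.30, 1.75, 3.82 and 3.14 CPM in Control and 2.93, 4.05, 3.000, 6.18 and 4.90 in Pool 2, with a log2 fold change of 0.60 ± 0.24 (SE, adjusted p = 0.547). Lama4, the endothelial alpha chain, held 5.10, 4.01, 3.13, 4.25 and 4.82 and 5.48, 5.37, 4.42, 5.51 and 6.44 CPM, with a log2 fold change of 0.35 ± 0.16 (SE, adjusted p = 0.609). In Lama5, Lama1 and Lama4 the groups overlapped. The abundant Lamb1 had means of 47.05 ± 3.84 CPM in Control and 47.1 ± 4.25 in Pool 2, and Lamc1, present in most laminin trimers, had a log2 fold change of 0.24 ± 0.10 (SE, adjusted p = 0.578), under the fold threshold.

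Among the fibril-associated (FACIT) collagens, Col16a1 held 12.4, 11.4, 8.29, 14.9 and 12.7 CPM in Control and 18.9, 18.97, 16.2, 18.5 and 16.3 in Pool 2. Each Pool 2 value exceeded each Control value, with a log2 fold change of 0.57 ± 0.14 (SE, adjusted p = 0.408). Col9a2 held 3.26, 2.22, 3.13, 4.77 and 3.45 CPM in Control and 3.84, 7.09, 3.87, 9.72 and 5.67 in Pool 2, with a log2 fold change of 0.84 ± 0.33 (SE, adjusted p = 0.547). Its Pool 2 replicates 1 and 3 lay within the Control range, and replicate 4 was the highest. Its partner chains went otherwise, since Col9a1 had a log2 fold change of -0.24 and Col9a3 of 0.08, neither called.

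Of the 11 fibrillar collagens, 10 were above 0 and 5 were called. Col1a2, the second chain of type I collagen, held 12.3, 7.74, 9.67, 13.8 and 12.7 CPM in Control and 16.9, 19.3, 10.9, 30.9 and 18.5 in Pool 2, with a log2 fold change of 0.78 ± 0.28 (SE, adjusted p = 0.521). Of the Pool 2 libraries 4 exceeded all Control libraries, and replicate 3 did not. Its partner Col1a1 was not called, at 19.8, 5.197, 5.85, 9.30 and 8.98 CPM in Control and 15.5, 12.3, 7.79, 19.4 and 14.2 in Pool 2, where Control replicate 1 was the highest of all 20. Col5a1, which nucleates collagen fibrils, held 6.93, 5.08, 5.11, 9.90 and 12.03 CPM in Control and 13.8, 12.03, 8.75, 18.7 and 12.9 in Pool 2, with a log2 fold change of 0.76 ± 0.23 (SE, adjusted p = 0.479). The cartilage chains Col2a1 and Col27a1 were lower in level. Col2a1 held 1.52, 1.39, 0.829, 1.63 and 1.42 CPM in Control and 2.88, 1.83, 1.71, 1.71 and 1.76 in Pool 2, with no overlap and a log2 fold change of 0.54 ± 0.21 (SE, adjusted p = 0.547). Col27a1 stood at 7.46 ± 0.658 and 10.03 ± 3.78 CPM, where Pool 2 replicate 1 reached 16.5 and the other 4 lay between 6.72 and 9.19. Col24a1, at 2 to 25 counts a library, was called at a log2 fold change of 1.04 ± 0.49 (SE, adjusted p = 0.64).

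Type VI collagen was represented by its 2 common chains. Col6a1 held 7.15, 6.98, 6.58, 8.19 and 20.4 CPM in Control and 22.8, 20.95, 13.4, 14.1 and 11.7 in Pool 2, and Col6a2 held 4.78, 3.61, 2.62, 2.90 and 7.83 and 8.23, 6.93, 4.87, 8.35 and 7.30 CPM. Control replicate 5 stood high in both, so that the groups overlapped. The tests gave a log2 fold change of 0.75 ± 0.34 (SE, adjusted p = 0.618) for Col6a1 and a log2 fold change of 0.71 ± 0.26 (SE, adjusted p = 0.504) for Col6a2. The third chain, Col6a3, was not called (log2 fold change -0.21). In type IV, 3 of 6 genes were called. Col4a5 held 4.65, 4.84, 5.43, 6.32 and 6.28 CPM in Control and 7.86, 6.74, 7.08, 8.64 and 6.87 in Pool 2, without overlap, with a log2 fold change of 0.43 ± 0.20 (SE, adjusted p = 0.625). Col4a6 rested partly on Pool 2 replicate 4, at 2.65, 3.12, 1.79, 4.26 and 1.76 CPM in Pool 2 against 1.70, 1.51, 1.80, 2.07 and 1.37 in Control, with a log2 fold change of 0.68 ± 0.24 (SE, adjusted p = 0.486). Col4a2 had a log2 fold change of 0.31 ± 0.13 (SE, adjusted p = 0.59), with 3 Pool 2 libraries above all of Control. Col18a1, a multiplexin whose C-terminal fragment is endostatin, completed the called members at 4.23 ± 1.30 CPM in Control and 6.63 ± 1.98 in Pool 2, a log2 fold change of 0.65 ± 0.31 (SE, adjusted p = 0.64).

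**Figure D3:**
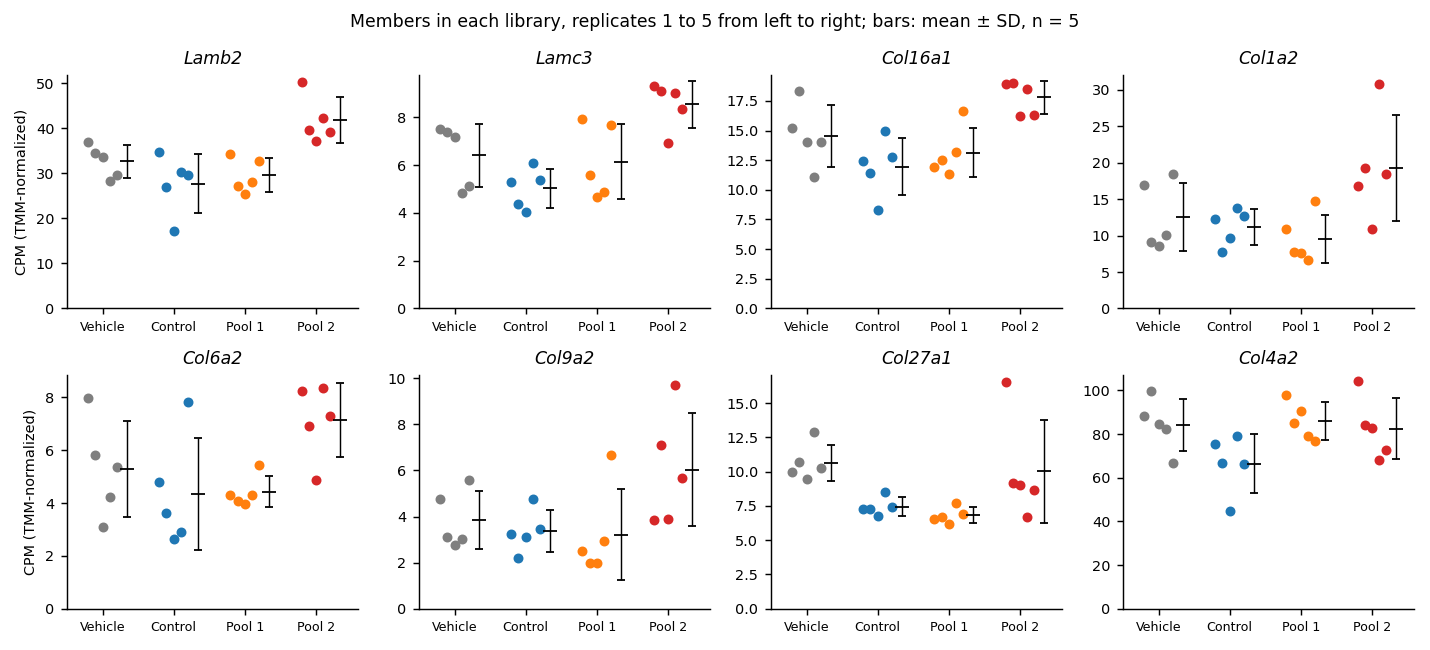
CPM of 8 members in each library, replicates 1 to 5 from left to right within each group, with the mean ± SD (n = 5) beside them. Pool 2 lies above Control without overlap for Lamb2, Lamc3 and Col16a1, single Pool 2 libraries stand high for Col1a2 and Col9a2 (replicate 4) and Col27a1 (replicate 1), and Control replicate 3 is the lowest for Col4a2.

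Some cell type markers were also called between Pool 2 and Control. In Pool 2 the summed level of leptomeningeal markers ranged from 61.9 to 213 CPM against 49.5 to 82.6 in Control, and 2 of 10 markers were called higher. Of 8 mural markers 4 were called higher (228 to 350 CPM against 149 to 252), of 9 endothelial markers 3 (274 to 371 against 179 to 306), of 5 thalamic markers 3 (101 to 428 against 78.8 to 185) and of 5 microglial markers 2 (211 to 529 against 217 to 267). Of 5 astrocyte markers 1 was called higher, Gfap, which reached 1401 CPM in Pool 2 replicate 1. Of all markers listed 1 was called lower, the pyramidal neuron marker Neurod6. No oligodendrocyte, neocortical, dentate granule neuron, blood or choroid plexus marker was called. The part of the markers in the collagen and laminin differences was not tested. Without Pool 2 replicates 1 and 4, an alternative chosen after seeing the data that leaves 3 Pool 2 libraries, 3 members were called higher, against 2.28% of all genes. These were Lamb2, Lamc3 and Col16a1. Leaving out Control replicate 3 alone gave 10 members against 4.43% of all genes, leaving out Pool 2 replicate 1 alone 11 against 3.31%, and leaving out Control replicate 2 alone 12 against 4.76%, all among the 18. Leaving out Pool 2 replicate 4 alone gave 13 against 5.20%, of which 10 were among the 18.

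Pool 2 mice were also compared with Pool 1 mice, which sets the patient cohorts against each other. The fold changes do not use the Control libraries, but the spread was estimated over all 4 groups. Here 15 of 55 members (27.3%) were called higher in Pool 2, against 5.66% of all genes, and 1 lower, against 1.16%. The median was 0.31 over the members and 0.02 over all genes, and the lowest adjusted p of a member in edgeR was 0.248. DESeq2 gave an adjusted p under 0.05 to 115 genes, of which 1 was a member (Col1a2, adjusted p = 0.0403 in DESeq2). Groups did not overlap for 3 members, Lamb2, Col4a5 and Col2a1, all higher in Pool 2, against 0.977% of all genes higher and 0.433% lower. Lamb2 held 34.2, 27.3, 25.5, 28.1 and 32.8 CPM in Pool 1, below each of the Pool 2 values given above, with a log2 fold change of 0.50 ± 0.13 (SE, adjusted p = 0.248). Col4a5 held 4.85, 5.11, 4.42, 4.70 and 6.15 CPM in Pool 1, with a log2 fold change of 0.56 ± 0.20 (SE, adjusted p = 0.399). Col2a1 held 1.33, 1.66, 1.16, 1.34 and 1.62 CPM in Pool 1 and had a log2 fold change of 0.47 ± 0.21 (SE, adjusted p = 0.536).

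The chains of type I and type III collagen were among the called members. Col1a2 held 10.96, 7.76, 7.57, 6.68 and 14.7 CPM in Pool 1, so that Pool 1 replicate 5 reached into the Pool 2 range, with a log2 fold change of 1.01 ± 0.28 (SE, adjusted p = 0.277). Col1a1 held 8.74, 6.32, 7.91, 5.65 and 8.80 CPM, with a log2 fold change of 0.89 ± 0.32 (SE, adjusted p = 0.407). Col3a1, the fibre-forming chain of vessel walls, held 2.75, 2.33, 1.94, 1.90 and 5.44 CPM in Pool 1 and 5.12, 6.19, 1.87, 8.14 and 6.10 in Pool 2, with a log2 fold change of 0.93 ± 0.41 (SE, adjusted p = 0.53). The highest Pool 1 library for all 3 genes was replicate 5, which at 124 CPM had the highest leptomeningeal marker sum of its group, the other 4 lying between 43.2 and 54.6. For Col1a1 its lead over replicate 1 was small (8.80 against 8.74 CPM). Control replicate 1, the highest of all 20 libraries for Col1a1, had a leptomeningeal sum of 55.6 CPM. The FACIT genes Col9a2, Col16a1 and Col20a1 were called too, the last at 5.42 ± 1.44 CPM in Pool 1 and 7.99 ± 1.55 in Pool 2. So were Lamc3, Lama1, Col6a2, Col18a1, Col27a1 and the transmembrane Col23a1, at log2 fold changes between 0.47 and 0.79. Lower in Pool 2 was the neuronal Col25a1, at 123, 97.4, 112, 101 and 77.2 CPM in Pool 1 and 45.9, 85.6, 71.5, 101 and 77.2 in Pool 2, with a log2 fold change of -0.42 ± 0.20 (SE, adjusted p = 0.578). Its groups overlapped, Pool 2 replicate 1 being the lowest of all 20 libraries, and the call was lost without that library and under several other omissions, among them Control replicates 2, 3 or 5. Markers of several cell types were called higher in Pool 2 than in Pool 1, namely all 5 of thalamus, 3 of 10 leptomeningeal, 3 of 8 mural, 3 of 5 microglial, 2 of 5 astrocyte, 2 of 3 blood, 1 of 9 endothelial and 1 of 6 choroid plexus markers, and 0 lower. The leptomeningeal sum ranged from 61.9 to 213 CPM in Pool 2 against 43.2 to 124 in Pool 1, the thalamic sum from 101 to 428 against 75.4 to 107, the mural sum from 228 to 350 against 197 to 257 and the microglial sum from 211 to 529 against 219 to 246. Their part in the collagen and laminin differences was not tested. Without Pool 2 replicates 1 and 4, 6 members were called higher against 2.46% of all genes, namely Col16a1, Col1a2, Col20a1, Col27a1, Col9a2 and Lamb2.

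Few of these genes were called between Pool 1 and Control mice. Of 55 members 2 were called higher, against 1.48% of all genes, and 0 lower, against 1.99%. The median was 0.08 over the members and -0.01 over all genes, and 38 of 55 were above 0. The lowest adjusted p in edgeR was 0.917 (0 members under 0.05 there or in DESeq2, and 3 at an unadjusted p under 0.05). The groups were without overlap for 0 members, against 0.512% of all genes higher and 0.349% lower. Both calls were lost without Control replicate 3. Col4a2 held 75.7, 66.7, 44.7, 79.03 and 66.5 CPM in Control and 97.98, 85.004, 90.7, 79.03 and 76.95 in Pool 1, with a log2 fold change of 0.37 ± 0.13 (SE, adjusted p = 0.917). Col5a3, a chain of fibrillar type V collagen, held 4.20, 3.53, 3.77, 5.21 and 3.85 and 4.45, 7.53, 4.85, 3.79 and 8.72 CPM, with a log2 fold change of 0.51 ± 0.23 (SE, adjusted p = 0.917). Col4a1, adjoining Col4a2, stood at 61.9 ± 9.78 and 75.1 ± 6.05 CPM and missed the fold threshold (log2 fold change 0.28, adjusted p = 0.917). Of all markers listed, the choroid plexus marker Otx2 and the astrocyte marker Gfap were called lower in Pool 1, and none higher.

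**Figure D4:**
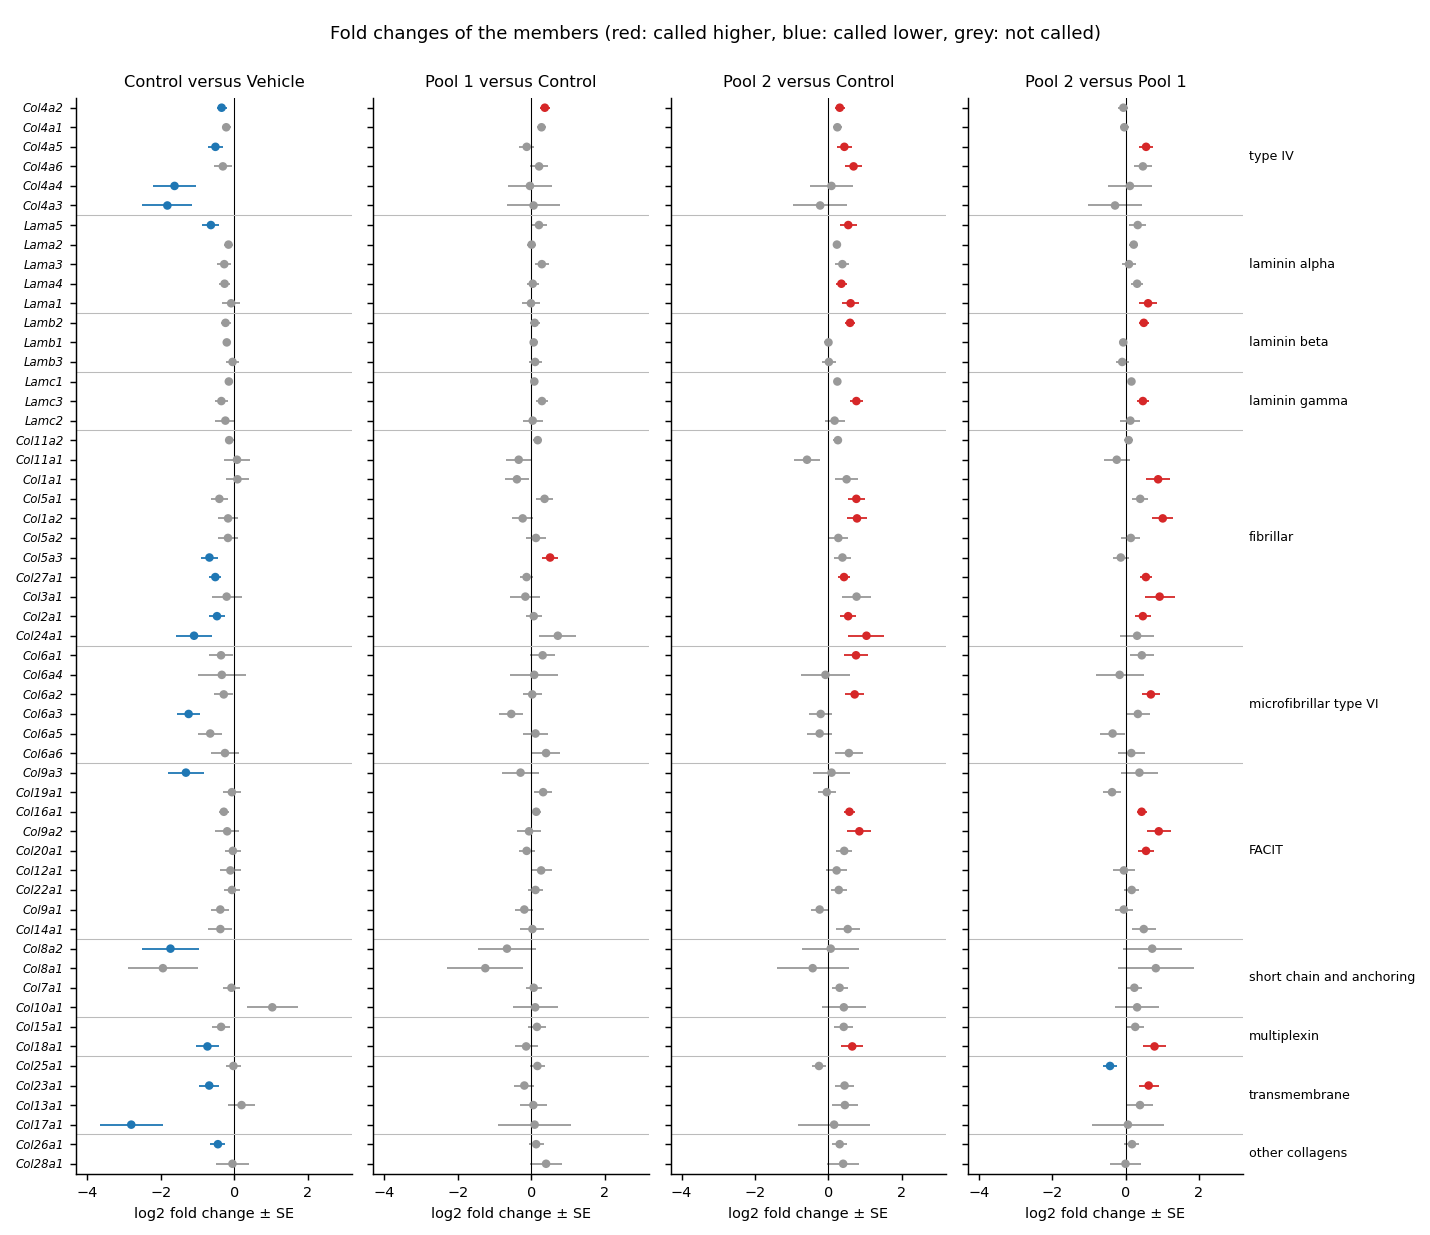
Log2 fold change ± SE of the 55 members in the 4 comparisons, by structural class, with called members in red (higher) or blue (lower). Most points lie left of 0 for Control against Vehicle (51 of 55), and right of 0 for Pool 2 against Control (46 of 55) and against Pool 1 (41 of 55). For Pool 1 against Control 38 of 55 lie right of 0, with a median of 0.08.

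The comparison of Control with Vehicle mice set an infusion of sRNAs of control individuals against artificial cerebrospinal fluid. Of 55 members 16 (29.1%) were called lower in Control, against 3.41% of all genes, and 0 higher, against 1.70%. The median was -0.28 over the members and -0.01 over all genes, 51 of 55 being below 0, and the lowest adjusted p in edgeR was 0.734. In edgeR and in DESeq2 0 members had an adjusted p under 0.05, and 16 had an unadjusted p under 0.05 in edgeR. The Control libraries are the same as in the comparisons with Pool 1 and Pool 2, so low values in them count in each. Col27a1 held 9.94, 10.7, 9.49, 12.9 and 10.2 CPM in Vehicle against 7.29, 7.26, 6.77, 8.55 and 7.43 in Control, without overlap, and a log2 fold change of -0.51 ± 0.17 (SE, adjusted p = 0.734). Col2a1 held 2.40, 1.65, 1.70, 1.71 and 1.95 CPM in Vehicle and was the other member without overlap, against 0.401% of all genes lower and 0.206% higher, with a log2 fold change of -0.47 ± 0.21 (SE, adjusted p = 0.739). Col6a3, the long chain of type VI collagen, held 21.2, 10.7, 4.60, 7.15 and 8.47 CPM in Vehicle and 2.91, 4.01, 7.23, 3.90 and 4.02 in Control. Of the Control libraries 4 lay below all of Vehicle, with a log2 fold change of -1.24 ± 0.31 (SE, adjusted p = 0.734). Col5a3 held 8.51, 8.10, 4.24, 4.96 and 7.03 CPM in Vehicle, with 4 of 5 Control libraries below all of them, and a log2 fold change of -0.67 ± 0.23 (SE, adjusted p = 0.734). These 4, together with Col4a2, Col23a1, Col24a1 and Col26a1, were called with or without Vehicle replicate 4.

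The other 8 calls, namely Col17a1, Col18a1, Col4a3, Col4a4, Col4a5, Col8a2, Col9a3 and Lama5, were lost without Vehicle replicate 4, and 11 members were then called lower in all, against 2.81% of all genes. Those added were Col16a1, Lama4 and Lamc3, which were also called higher in Pool 2 than in Control. In Vehicle replicate 4 the short-chain collagen Col8a2 reached 46.9 CPM against 8.72, 10.8, 2.22 and 3.63 in the other Vehicle libraries and 4.38, 2.74, 11.6, 1.31 and 1.72 in Control. Its partner Col8a1 reached 47.7 against 1.009 to 5.63 in Vehicle, and missed the threshold (log2 fold change -1.94 ± 0.96, adjusted p = 0.751). Both chains build the hexagonal lattice of corneal and vascular membranes. Col9a3 held 27.98, 34.6, 14.9, 144 and 19.7 CPM in Vehicle and 20.2, 14.995, 31.5, 14.6 and 15.7 in Control, with a log2 fold change of -1.31 ± 0.49 (SE, adjusted p = 0.734). Col17a1, the hemidesmosome collagen, stood at 0.337, 0.779, 0.283, 5.22 and 0.0931 CPM in Vehicle and 0.0447, 0.278, 0.368, 0.199 and 0.0442 in Control, 1 to 119 counts a library. Col4a3 held 0.969, 2.38, 0.727, 10.05 and 0.372 CPM and Col4a4 2.28, 3.59, 1.45, 13.997 and 0.698 CPM in Vehicle. The libraries that led in Ttr were shared with these genes to different extents. The 5 libraries of highest Ttr, which were Vehicle replicates 4, 2 and 1, Control replicate 3 and Pool 2 replicate 3, were also the 5 highest for Col8a1, Col8a2 and Col9a3. Of those 5 libraries, 4 were among the 5 highest for Col17a1, Col4a3 and Col4a4, 3 for Col18a1 and Lama5, and 2 for Col4a5. For the 6 choroid plexus markers the sum ranged from 209 to 8959 CPM in Vehicle and from 116 to 2285 in Control, and 3 of the 6 (Clic6, Kl and Otx2) were called lower in Control. Among the other marker lists, the leptomeningeal marker Igf2 and the mural marker Abcc9 were called lower. No marker was called higher. Their part in the collagen differences was not tested. Without the 3 libraries of highest Ttr, chosen after seeing the data, 9 members were called lower against 3.04% of all genes. Of these, 7 were among the 16, namely Col23a1, Col27a1, Col4a3, Col5a3, Col6a3, Col8a2 and Col9a3, and Col8a1 and Col9a1 were added. Col4a3, Col8a2 and Col9a3 were thus called here although their calls were lost without Vehicle replicate 4 alone, whereas Col2a1, Col24a1, Col26a1 and Col4a2, called without that library, were not called here.

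**Figure D5:**
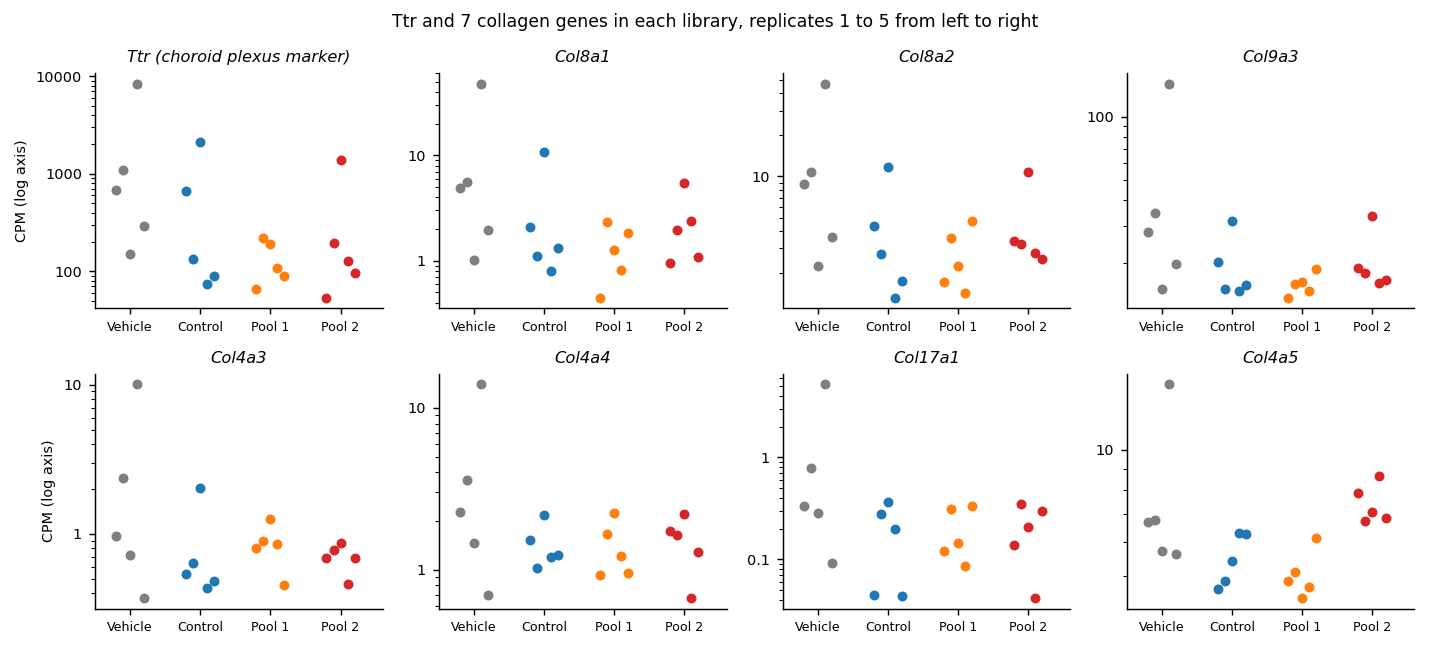
CPM (log axis) of the choroid plexus marker Ttr and of 7 collagen genes in each library, replicates 1 to 5 from left to right within each group. The Vehicle library at 8330 CPM of Ttr is the highest for all 7 collagens, and the Control and Pool 2 libraries of highest Ttr (2114 and 1379 CPM) lead their groups for Col8a1, Col8a2 and Col9a3.

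Chains that join in 1 trimer were examined for whether their mRNAs moved together over the 20 libraries, in 8 pairs of partner chains and 2 pairs set beside them, with permutation p-values adjusted over these 10 pairs. Besides Col4a1 and Col4a2, the log2 CPM of Col8a1 and Col8a2 had r = 0.956 (rho = 0.884, adjusted p = 3.33e-05), and r = 0.882 without the 3 libraries of highest Ttr. The type I chains Col1a1 and Col1a2 had r = 0.823 (rho = 0.826), the type V chains Col5a1 and Col5a2 r = 0.822 (rho = 0.821), and the type VI chains Col6a1 and Col6a2 r = 0.769 (rho = 0.749), with adjusted permutation p-values of 5e-05, 6e-05 and 0.000267 for r. Without the 2 libraries farthest from the median of the first gene these became 0.883, 0.736 and 0.694, and within groups (deviations from group means) 0.735, 0.870 and 0.701. The other 3 partner pairs did not pass the test for r over the 20 libraries. Lamb1 and Lamc1, the beta and gamma chains of the commonest laminins, had r = 0.0782 (rho = 0.0211, adjusted p = 0.827). Col9a1 and Col9a2 had r = 0.0195 (rho = 0.137, adjusted p = 0.935). Lama2 and Lamb2 had r = 0.350 (rho = 0.562, adjusted p = 0.185 for r and 0.0159 for rho), so that this pair passed on rho alone. Without the 2 farthest libraries it passed on both, at r = 0.583 (adjusted p = 0.0159) and rho = 0.744 (adjusted p = 0.00102), and within groups r was -0.0342. Col3a1 and Col1a2, which share no trimer and are both made by fibroblasts, had r = 0.900 (rho = 0.874, adjusted p = 3.33e-05). The fibroblast chain Col1a1 and the basement membrane chain Col4a1 had r = 0.169 (rho = 0.0511, adjusted p = 0.601). All pairs share the depth and the tissue makeup of their libraries.

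Genes that act with collagens and laminins were followed in a list of 40, made of basement membrane partners, processing enzymes, receptors, and proteases with their inhibitors. In Pool 2 against Control 6 of 40 were called higher and 0 lower, with a median log2 fold change of 0.23. Of the 7 basement membrane partners 4 were called, namely Nid1 (log2 fold change 0.57 ± 0.14 SE), the linker of laminin to type IV collagen, the perlecan gene Hspg2 (0.72 ± 0.21), Sparc (0.43 ± 0.12), a collagen-binding glycoprotein, and Fn1 (0.74 ± 0.29), fibronectin. The other 2 were receptors, the laminin-binding integrin Itga3 (0.41 ± 0.13) and the collagen receptor Ddr2 (0.36 ± 0.12). None of the 15 processing genes was called there. Against Pool 1, 5 of 40 were called higher, with a median of 0.22, and these were Nid1, Sparc, Hspg2, the lysyl oxidase Loxl3 and the gelatinase Mmp2. In Pool 1 against Control 0 of 40 were called in either direction, and the median was -0.01. In Control against Vehicle 7 of 40 were called lower (Nid1, Nid2, Hspg2, Itga3, Ddr2, Mmp2 and Loxl4) and 0 higher, with a median of -0.25. The shares of all genes called in each comparison are those given above, and no gene of the list passed an adjusted p of 0.05 in edgeR. The lowest adjusted p was that of Sparc in Pool 2 against Pool 1, at 0.128.

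Of the 55 members, 24 were called in no comparison, and some of these varied widely within groups. Col6a4, a type VI chain, ranged from 0.351 to 16.3 CPM within Pool 2 alone, and from 2.26 to 12.4 in Control. Col11a1 held 94.1, 50.7, 67.2, 79.03 and 26.97 CPM in Control and 46.8, 26.4, 46.8, 42.02 and 50.1 in Pool 2, with a log2 fold change of -0.58 ± 0.35 (adjusted p = 0.745), the most negative of the members there. Lamb1, Lamc1 and Lamb3 were the steadiest, their highest library holding 1.63, 1.59 and 1.71 times the CPM of their lowest. Exons of 16 members overlap those of another annotated gene, 13 of them on the opposite strand and 3 (Col3a1, Col20a1 and Col7a1) on the same strand, and how reads there were counted was not tested. The strand setting of the counts was not given in the sources used here.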

How the data were processed

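Bulk RNA-seq of mouse hippocampal tissue was analysed in 20 libraries (Vehicle, Control, Pool 1 and Pool 2, 5 each), grouped by the sample labels. The authors prepared stranded poly(A) libraries, sequenced each in 2 rounds, aligned reads to GRCm38 (mm10) with STAR and counted them per gene on GENCODE annotation. The deposited values are raw counts per gene, from 20588280 to 25543939 a library, without normalization. No other column was used. An interval or floor from counts covers counting error only, and 3 counts correspond to 0.117 to 0.146 CPM.

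Members were taken by symbol, and exon lengths from GENCODE M21 on the same build. Counts were TMM-normalized and tested over all 25190 genes in 1 fit of the 4 groups with edgeR 4.0.16 (glmQLFit, robust, and glmQLFTest) in R 4.3.3, with Benjamini-Hochberg adjustment. Correlations used log2 CPM with a prior count of 2 and 100000 two-sided permutations, adjusted by Benjamini-Hochberg. The test was checked on simulated data. Named members were those called in any comparison at a mean normalized count of at least 10, the highest of each class per length and the partner chains. Members, lists and tests were chosen with earlier results of these data known. Alternatives included DESeq2 1.42.0, other size factors and filters, fewer groups, a replicate block and leaving out libraries. No library was a duplicate of another of its group, since replicates differed by 8.23 to 66.8 times the sampling variance. Libraries of different groups were not checked in this way.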

Additional observations from a re-analysis of the deposited data

Results flagged for a closer look

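Each value here is the CPM of a library that stood off from the other 4 of its group, its gap to the nearest of them taking more than 0.71 of the range of the group. Of 160 groups examined (40 named members in 4 groups), 30 held such a library. The cut-off gives about 1 in 20 for independent normal values. These are CPM of genes that move together in the same libraries, so the 30 cannot be set against that rate. Vehicle replicate 4 was the high library 9 times. It held 143.7 CPM of Col9a3, 47.7 of Col8a1, 46.9 of Col8a2, 67.6 of Lamb1, 14.3 of Col4a5, 13.997 of Col4a4, 13.2 of Col18a1, 10.05 of Col4a3 and 5.22 of Col17a1. Control replicate 3 was high for Col8a1 (10.7), Col6a3 (7.23) and Col4a3 (2.03) and low for Col4a1 (44.7). Pool 2 replicate 3 was high for Col9a3 (33.4) and Col8a2 (10.7) and low for Col24a1 (0.167). Pool 2 replicate 1 was high for Col4a1 (95.98), Col27a1 (16.5) and Col2a1 (2.88). Pool 1 replicate 5 was high for Col11a2 (59.5), Col9a2 (6.69), Col3a1 (5.44) and Col6a2 (5.44), and Pool 1 replicate 3 was low for Col5a2 (5.97). Vehicle replicate 1 was high for Col5a1 (15.3) and Col5a2 (13.2). In Control, replicate 1 was high for Col1a1 (19.8), replicate 4 for Col26a1 (3.14) and replicate 5 for Col6a1 (20.4), while replicate 2 was low for Col9a1 (0.555).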

How the results depend on the processing

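Over all single-library omissions, the members called higher numbered 10 to 22 in Pool 2 against Control (3.31% to 5.70% of all genes), 10 to 18 in Pool 2 against Pool 1 (3.67% to 6.49%), 0 to 4 in Pool 1 against Control (1.24% to 1.91%) and 0 to 1 in Control against Vehicle (1.03% to 3.15%), and those called lower numbered 11 to 18 in Control against Vehicle (2.62% to 4.46%), 0 to 2 in Pool 2 against Pool 1 (0.830% to 1.71%), 0 to 1 in Pool 2 against Control (0.897% to 1.97%) and 0 to 1 in Pool 1 against Control (1.58% to 3.05%). The 0 members higher in Pool 1 came without Control replicate 3. With only the 2 groups compared in the fit, 9 members were called lower in Control than in Vehicle (2.97% of all genes), 13 higher in Pool 2 than in Control (3.86%) and 1 lower in Pool 1 than in Control (1.93%). Members higher in Pool 2 than in Control also numbered 14 under edgeR's filterByExpr (4.56%). With the 18 libraries left without Pool 2 replicate 1 and Vehicle replicate 4, 13 were higher in Pool 2 than in Control (3.38%), 0 were lower in Pool 2 than in Pool 1 and 1, Col10a1, was higher in Control than in Vehicle. Alternatives chosen after seeing the data moved some counts. Without the 3 libraries of highest Ttr, 0 were higher in Pool 1 than in Control, 0 lower in Pool 2 than in Pool 1, and 9 lower in Control than in Vehicle, r of Col1a1 with Col4a1 was -0.0406 and r of Col4a5 with Col4a6 was 0.682. Without Pool 2 replicates 1 and 4, 3 were higher than in Control and 6 higher than in Pool 1. Within groups, r of Lama2 with Lamb2 was -0.0342. The causes were not tested beyond the loss of libraries. Of 52 calls of named members, 9 were kept under every alternative and 0 changed direction.

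A fit with the replicate number as a block called 19 members higher in Pool 2 than in Control (4.72%), 15 higher in Pool 2 than in Pool 1 (5.16%), 2 higher in Pool 1 than in Control (1.26%) and 13 lower in Control than in Vehicle (2.76%). The numbers were not treated as pairing, since 10 of 30 same-numbered pairs of libraries had a correlation of deviations above 0.1 and 1 of 20 libraries correlated best with its own number. Depth limits genes such as Col17a1, Col24a1 and Col10a1, which had 0 or few counts in some libraries.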
